A study of Homo sapiens with 12 samples.

Results

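The genes described here are 34 genes of glycolysis and of the response to low oxygen, out of 12584 genes in the copy of the count table used here. They were chosen by name as glycolytic enzymes, glucose and lactate transporters, regulators of pyruvate use, and genes of oxygen sensing or hypoxia output, and all 34 were in the table and passed the filter on low counts in every comparison. The values are RNA-seq read counts per gene from A549 and PC9, which are established human non-small cell lung cancer cell lines. Each line had been stably infected with a lentivirus, either pCDH-HOXC6, which carries the homeobox transcription factor HOXC6, or the empty pCDH-NEO vector, and selected with neomycin. The 4 groups were A549-HOXC6, A549-NEO, PC9-HOXC6 and PC9-NEO, with 3 libraries each and 12 in all. The culture medium was RPMI 1640 for A549 and DMEM for PC9, so line and medium cannot be told apart. No low-oxygen treatment was named for any group. The libraries were called independent replicates without saying whether they came from separate cultures, so the p-values measure the spread between these libraries, which may be technical.

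The library totals ran from 1212053 to 3286577 counts, and 3 counts, the limit used here for a gene not seen, stood for 0.913 to 2.48 CPM (counts scaled to the library total). The copy of the table used here is in order of Ensembl identifier and ends within a row, so genes with later identifiers, HOXC6 among them, were not analysed here. It held 12249 of 20175 annotated protein-coding genes (60.7%), shares of counts and genes tested are over these genes alone, and the labels were not checked on HOXC6. All 12 replicate pairs differed by more than counting error. The epithelial markers summed to 0.78% to 1.23% of counts, and the leukocyte, fibroblast and endothelial markers to 0.007% or less in every library. Markers of the lung lineage summed to 0.0109% to 0.0188% in A549 and to 0.000548% or less in PC9, and came mainly from FOXA2 in A549. NKX2-1 and the surfactant genes averaged 2.53 CPM or less in every group.

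Glycolysis splits glucose to pyruvate in the cytosol and yields ATP without oxygen. Many cancer cells run it fast even where oxygen is present, turn pyruvate to lactate with lactate dehydrogenase, and export the lactate. When oxygen is present, the prolyl hydroxylases encoded by EGLN1 and EGLN3 mark the HIF-1α protein, the product of HIF1A, for destruction. When oxygen is scarce the protein escapes, binds the letters ACGTG or GCGTG near its targets, and raises many glycolytic genes together with outputs such as CA9, VEGFA and NDRG1. HIF-1α is governed largely at the protein level, so the mRNA of HIF1A is not a measure of its activity.

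The promoters of 4 members are shown as examples from the contrasts described further on, and all 4 hold ACGTG. By the test of the difference between the lines given further on, ENO2, P4HA1 and EGLN1 changed differently, and CA9 did not pass. Other members with a single RefSeq start also changed differently in the lines. Of these, ANGPTL4, BHLHE40 and PGK1 had ACGTG in the 250 bases before the start, and EGLN3, ADM, PKM and ENO1 did not. ADM and ENO1 had GCGTG there on either strand, and EGLN3 and PKM had neither. ENO2 and P4HA1 moved in opposite directions in the lines, EGLN1 rose in A549, and CA9 rose in PC9. Each stretch is the 120 bases before the start of the gene's single RefSeq start (GRCh38.p14), 5′ to 3′ on the strand of the gene, with the match to ACGTG on either strand (CACGT where it lies on the opposite strand) in capitals.
ENO2, chr12:6914460-6914579, plus strand: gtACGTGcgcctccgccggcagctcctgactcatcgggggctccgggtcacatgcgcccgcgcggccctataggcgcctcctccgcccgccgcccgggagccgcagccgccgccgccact
P4HA1, chr10:73096867-73096986, minus strand: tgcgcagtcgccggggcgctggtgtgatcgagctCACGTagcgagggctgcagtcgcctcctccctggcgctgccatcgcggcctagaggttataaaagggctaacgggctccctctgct
EGLN1, chr1:231422288-231422407, minus strand: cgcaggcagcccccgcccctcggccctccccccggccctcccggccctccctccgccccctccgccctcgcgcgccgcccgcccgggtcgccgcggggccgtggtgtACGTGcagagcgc
CA9, chr9:35673808-35673927, plus strand: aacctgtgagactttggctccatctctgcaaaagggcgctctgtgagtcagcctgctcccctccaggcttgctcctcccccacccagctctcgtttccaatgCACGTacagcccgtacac
The letters began 118 bases before the start in ENO2, 86 in P4HA1, 18 in CA9 and 13 in EGLN1. Of the 34 members, 30 had RefSeq starts in the promoter table, 57 starts in all, and the window searched was the 250 bases before each start. ACGTG or GCGTG on either strand, where matches on opposite strands may overlap as in CACGTG and a start counts once, was present at 34 of the 57 starts (59.6%), against 51.0% of 14448 starts of genes in the count table and 43.2% of all 35116 starts. ACGTG alone was present at 21 of the 57 (36.8%), against 20.5% and 18.5%. Of the 30 members, 26 had a match at some start, but a gene with several starts has more chances to match. This count by gene cannot be set beside the shares by start, and it was not made over all genes. The members without an entry were SLC2A3, SLC16A1, VEGFA and NDRG1. A match of 5 letters is a description of the sequence and not a binding site.

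Levels are given as CPM after TMM scaling over the 12 libraries, and per kilobase of the canonical transcript wherever genes are compared with each other. Per kilobase, GAPDH was the highest member in all 4 groups, at 3918 CPM per kilobase in A549-NEO and 8365 in PC9-NEO. The lowest member in all 4 groups was PDK1, a kinase that shuts the entry of pyruvate into mitochondria, at 0.56 and 1.71. Together the 34 members took 1.92% to 1.96% of counts in A549-NEO, 2.24% to 2.30% in A549-HOXC6, 2.94% to 3.08% in PC9-NEO and 3.22% to 3.46% in PC9-HOXC6, and in both lines the HOXC6 libraries lay above the NEO libraries.

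**Figure D1:**
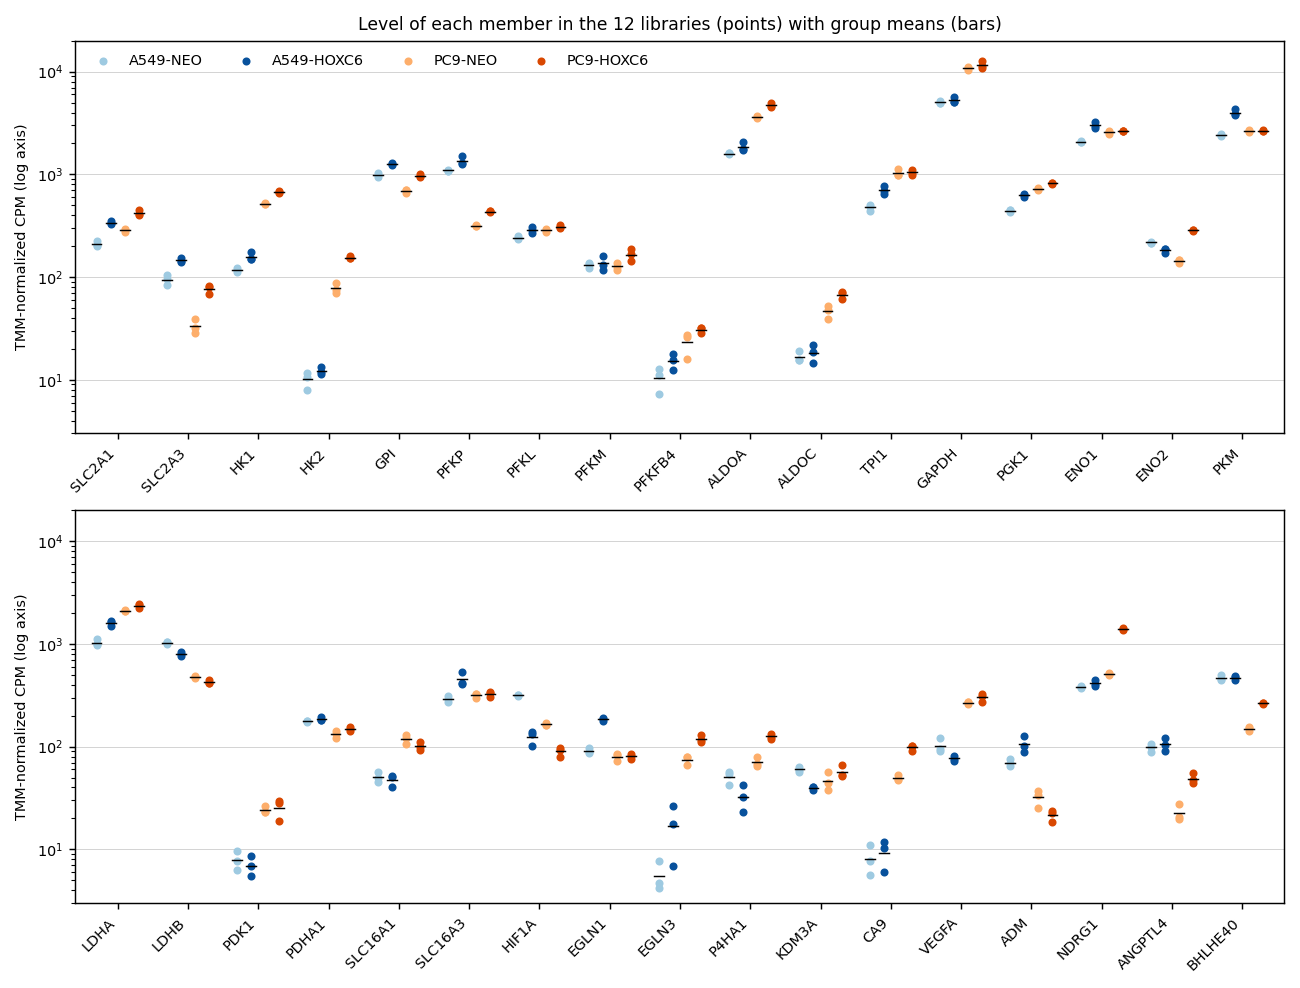
TMM-normalized CPM (log axis) of each of the 34 members in the 12 libraries (points), with group means (bars). NDRG1 stands apart in PC9-HOXC6 at 1379 to 1443, and HK2, CA9 and EGLN3 lie at 11.7 or below in A549-NEO.

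In each line the 3 HOXC6 and 3 NEO libraries were tested against each other by edgeR's quasi-likelihood test with Benjamini-Hochberg adjustment over all genes tested. A gene is said to have risen or fallen at an adjusted p under 0.05, and is called where its log2 fold change was also above 1 or below -1. In A549, 15 of the 34 members rose and 6 fell, where 18.9% of the 8771 genes tested rose and 20.7% fell. Of these, 1 member was called higher, against 1.7% of all genes, and 1 was called lower, against 5.51%. In PC9, 19 members rose and 2 fell, where 13.3% of 8419 genes rose and 14.2% fell, and 3 were called higher, against 0.962% of all genes, and 0 lower, against 3.56%. Members called higher numbered 5 without PC9-HOXC6 replicate 2 or without PC9-NEO replicate 1, and in A549 they numbered 2 without A549-HOXC6 replicate 2, A549-HOXC6 replicate 3 or A549-NEO replicate 1. Over all genes, 87 of 8570 and 109 of 8553 were then called higher in PC9. In A549 these were 156 of 8882, 129 of 8908 and 158 of 8886. The median log2 fold change of the members was 0.21 in A549 and 0.32 in PC9, beside 0.00 over all genes tested in each line. The 3 libraries of each group did not overlap for 16 members with HOXC6 higher and 5 with HOXC6 lower in A549 (26.4% and 23.9% of all genes), and for 20 and 3 in PC9 (19.3% and 20.5%). In RNA from a whole culture, fewer cells that express a gene and less RNA per cell cannot be told apart.

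The change of a gene went with its GC content in both lines. Over all genes the log2 fold change and the GC content of the transcript had a Spearman rho of 0.530 in A549 (8698 genes) and 0.527 in PC9 (8349 genes), which describes genes that share libraries and are not independent. The members' median GC content was 53.2%, against 48.7% over all genes. After each library was corrected for its own smooth dependence on GC content and transcript length, 10 members rose and 9 fell in A549, and 17 rose and 3 fell in PC9. Over all genes so corrected, 1107 of 8771 rose and 1670 fell in A549, and 720 of 8419 rose and 1073 fell in PC9. The median of the members was then 0.03 in A549 and 0.20 in PC9, beside -0.06 and -0.05 over all genes. With scaling by library size only, 16 members rose and 4 fell in PC9, where 752 of the 8419 genes tested rose and 1595 fell. The part that GC content has in the counts was not tested.

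**Figure D2:**
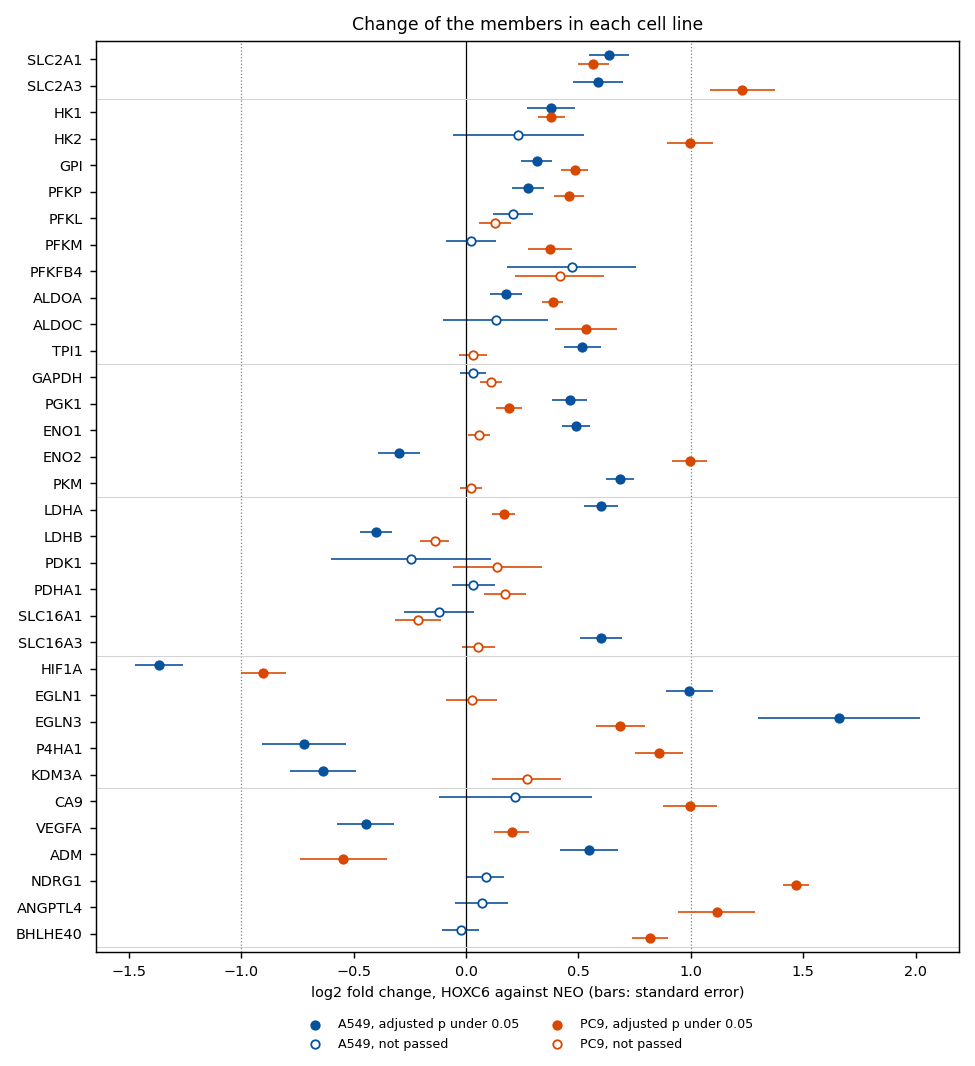
Log2 fold change of HOXC6 against NEO for each member in A549 (blue) and PC9 (orange); bars are standard errors, filled points have an adjusted p under 0.05 and dotted lines mark -1 and 1. HIF1A lies to the left in both lines, while ENO2, P4HA1, VEGFA and ADM lie on opposite sides of 0 with filled points in both lines.

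Both glucose transporters rose in both lines. SLC2A1, the widespread transporter GLUT1, read 226, 204 and 203 CPM in the A549-NEO libraries against 333, 329 and 350 in A549-HOXC6. The PC9 values were 287, 276 and 293 in NEO against 409, 400 and 450 in HOXC6. The HOXC6 libraries were above the NEO libraries in each line, with a log2 fold change of 0.64 ± 0.088 (SE; adjusted p = 2.27e-06, edgeR) in A549 and 0.57 ± 0.071 (adjusted p = 3.73e-07) in PC9. SLC2A3, the high-affinity transporter GLUT3, read 95.2, 83.4 and 105 CPM in the A549-NEO libraries against 152, 141 and 142 in A549-HOXC6. Its PC9 libraries gave 38.7, 31.6 and 28.8 with NEO and 68.1, 79.8 and 81.9 with HOXC6, again without overlap. Its log2 fold change was 0.59 ± 0.11 in A549 (adjusted p = 1.28e-04) and 1.23 ± 0.15 in PC9 (adjusted p = 1.6e-07), where it was called higher. SLC2A3 shares most of its sequence with SLC2A14, so its counts are uncertain.

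Of the 10 genes that carry glucose to the triose phosphates, 5 rose in A549 and 7 in PC9, and 0 fell in either line as counted, whereas after the GC correction ALDOA fell in A549 (-0.18, adjusted p = 0.00247) and PFKP turned to -0.055, and HK1 and GPI no longer passed there (adjusted p = 0.374 and 0.158). Over all genes tested as counted, 18.9% rose and 20.7% fell in A549, and 13.3% and 14.2% in PC9. The median log2 fold change of the 10 was 0.25 in A549 and 0.40 in PC9. HK1 and HK2 phosphorylate glucose and so trap it in the cell. HK1 read 117, 112 and 123 CPM in the A549-NEO libraries against 151, 175 and 149 in A549-HOXC6, and 512, 524 and 519 in the PC9-NEO libraries against 682, 677 and 659 with HOXC6. It rose by 0.38 ± 0.11 in A549 (adjusted p = 0.0059) and by 0.38 ± 0.061 in PC9 (adjusted p = 1.92e-05). HK2 read 8.02, 11.7 and 10.6 CPM in the A549-NEO libraries against 11.3, 11.9 and 13.3 in A549-HOXC6, groups that overlapped. For PC9 the readings were 75.3, 69.3 and 87.6 in NEO and 161, 152 and 152 in HOXC6. HK2 rose in PC9 by 0.998 ± 0.10 (adjusted p = 1.35e-08), just short of the fold limit, while the A549 value was 0.23 ± 0.29 (adjusted p = 0.556) on 14 to 31 counts per library.

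Among the following steps, GPI, which converts glucose 6-phosphate to fructose 6-phosphate, rose by 0.32 ± 0.069 in A549 and 0.48 ± 0.060 in PC9. PFKP, the platelet form of phosphofructokinase, rose by 0.28 ± 0.071 and 0.46 ± 0.067. The liver form PFKL passed the test in neither line (0.21 and 0.13), although its libraries did not overlap in either. The muscle form PFKM rose in PC9 (0.37 ± 0.098, adjusted p = 0.0044), though not with the GC correction (0.18, adjusted p = 0.183), and was at 0.02 ± 0.11 in A549. PFKFB4, which sets the level of the phosphofructokinase activator fructose 2,6-bisphosphate, had 0.47 ± 0.29 in A549 and 0.42 ± 0.20 in PC9 and passed in neither, on 18 to 34 counts per A549 library. These 5 genes were all on the positive side in both lines.

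The aldolase ALDOA, which splits the 6-carbon sugar, rose by 0.39 ± 0.048 in PC9, from between 3559 and 3680 CPM to between 4524 and 4937. In A549 it was at 0.18 ± 0.070 (adjusted p = 0.0443), which did not pass without any 1 of the 3 A549-NEO libraries or without A549-HOXC6 replicate 3 (adjusted p from 0.0671 to 0.142). Another gene on the same strand shares 1639 bases of exon with ALDOA, whose canonical transcript has 1640 bases, so the counts of ALDOA are uncertain. ALDOC, the brain form, rose in PC9 (0.53 ± 0.14, adjusted p = 0.0042), but did not pass with the GC correction (0.36, adjusted p = 0.0615), and was at 0.13 ± 0.23 in A549. TPI1, which interconverts the triose phosphates, read 507, 482 and 444 CPM in the A549-NEO libraries against 649, 689 and 771 in A549-HOXC6, a rise of 0.52 ± 0.081 (adjusted p = 1.27e-05). In PC9 the TPI1 groups overlapped, at 978 to 1118 in NEO and 987 to 1111 in HOXC6, with 0.03 ± 0.062 (adjusted p = 0.764).

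In lower glycolysis, where ATP is made, the lines parted. PKM, the pyruvate kinase that makes pyruvate in most cells, read 2475, 2417 and 2381 CPM in the A549-NEO libraries against 3889, 3744 and 4363 in A549-HOXC6. The PC9 values were 2629, 2570 and 2673 in NEO against 2638, 2634 and 2691 in HOXC6. The A549 libraries were well apart and the PC9 libraries overlapped, with log2 fold changes of 0.68 ± 0.063 (adjusted p = 2.05e-09) and 0.02 ± 0.049 (adjusted p = 0.791), and with the GC correction 0.35 and -0.19. ENO1, the common enolase, read 2082, 2059 and 2120 CPM in the A549-NEO libraries against 2986, 2848 and 3199 in A549-HOXC6. Its PC9 libraries gave 2574, 2457 and 2659 with NEO and 2673, 2660 and 2644 with HOXC6. ENO1 rose by 0.49 ± 0.063 in A549 (adjusted p = 6.44e-07) and was at 0.06 ± 0.050 in PC9 (adjusted p = 0.424). PGK1, which makes the first ATP of this stretch, rose in both, by 0.46 ± 0.078 in A549 and 0.19 ± 0.058 in PC9 (adjusted p = 0.0138). The PC9 rise of PGK1 did not pass without PC9-NEO replicate 2 (adjusted p = 0.0547) or with scaling by library size only (0.11, adjusted p = 0.182).

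ENO2, the neuronal enolase whose promoter is printed above, moved in opposite directions in the lines. It read 221, 216 and 215 CPM in the A549-NEO libraries against 172, 189 and 186 in A549-HOXC6. For PC9 the readings were 148, 146 and 138 in NEO and 278, 290 and 288 in HOXC6. No groups overlapped. ENO2 fell by 0.30 on the log2 scale in A549 (adjusted p = 0.0122) and rose by 0.99 ± 0.079 in PC9 (adjusted p = 1e-10). The A549 fall did not pass without A549-HOXC6 replicate 1 (adjusted p = 0.0666) or A549-NEO replicate 1 (adjusted p = 0.0590).

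GAPDH, which oxidizes glyceraldehyde 3-phosphate and often serves as a reference gene, passed the test in neither line. It read 5183, 5001 and 4920 CPM in the A549-NEO libraries against 5110, 5050 and 5677 in A549-HOXC6, with 0.03 ± 0.059 (adjusted p = 0.714). The PC9 values were 10331, 10877 and 11037 in NEO against 10870, 11247 and 12587 in HOXC6, with 0.11 ± 0.048 (adjusted p = 0.0886). In the study GAPDH was the qRT-PCR reference, while β-actin, the protein of ACTB, was probed on the immunoblots. The mRNA of ACTB rose by 0.56 ± 0.060 in A549 (adjusted p = 2.88e-08, edgeR) and fell by 0.18 in PC9 (adjusted p = 0.00355). The count ratio of GAPDH to ACTB was therefore 1.76 to 1.87 in A549-NEO and 1.19 to 1.38 in A549-HOXC6, but 2.27 to 2.33 in PC9-NEO and 2.72 to 3.00 in PC9-HOXC6, so HOXC6 and NEO libraries did not overlap in either line and lay in opposite order. After the GC correction GAPDH stood at -0.32 in A549 (adjusted p = 4.44e-09) and -0.07 in PC9. GAPDH has 65 annotated pseudogenes by name, which can take reads from it or give reads to it.

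At the branch to lactate, LDHA, whose enzyme favours lactate, read 984, 1107 and 1002 CPM in the A549-NEO libraries against 1649, 1672 and 1490 in A549-HOXC6. Its PC9 libraries gave 2071, 2143 and 2082 with NEO and 2244, 2392 and 2419 with HOXC6. LDHA rose in both, by 0.60 ± 0.074 in A549 (adjusted p = 3.55e-07) and by 0.17 ± 0.051 in PC9 (adjusted p = 0.0132). The PC9 rise of LDHA did not pass with scaling by library size only (0.085, adjusted p = 0.233) or with all 12 libraries in one model (0.17, adjusted p = 0.0598). LDHB, whose enzyme favours pyruvate, read 1037, 1048 and 1002 CPM in the A549-NEO libraries against 827, 803 and 769 in A549-HOXC6, and 477, 464 and 482 in the PC9-NEO libraries against 419, 417 and 448 with HOXC6. It fell by 0.40 on the log2 scale in A549 (adjusted p = 7.24e-05). In PC9 the LDHB groups did not overlap, but the change of -0.14 ± 0.065 did not pass (adjusted p = 0.11). Another gene shares 997 bases of exon with LDHB on the same strand.

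SLC16A3, the lactate exporter MCT4, read 293, 269 and 310 CPM in the A549-NEO libraries against 408, 419 and 532 in A549-HOXC6, a rise of 0.60 ± 0.094 (adjusted p = 1.3e-05). For PC9 the readings were 300, 326 and 323 in NEO and 336, 303 and 340 in HOXC6, which overlapped (0.05 ± 0.072). SLC16A1, the lactate transporter MCT1, was at -0.12 ± 0.15 in A549 and -0.21 ± 0.10 in PC9 and passed in neither. Nor did the regulators of pyruvate entry into mitochondria: PDHA1, a subunit of pyruvate dehydrogenase, was at 0.03 ± 0.095 and 0.17 ± 0.093. PDK1, which inhibits that enzyme, was at -0.25 ± 0.36 on 8 to 24 counts per A549 library and at 0.14 ± 0.20 in PC9, where it passed with the GC correction (0.65, adjusted p = 0.0181). In A549 the members that rose at the pyruvate end were thus PKM, LDHA and SLC16A3.

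Shares within pairs of related genes, on CPM per kilobase, put these changes together and were described without a test. LDHA made up 36.8% ± 1.2 (SD, n = 3) of LDHA and LDHB in A549-NEO and 53.8% ± 0.90 in A549-HOXC6, 72.0% ± 0.75 in PC9-NEO and 76.1% ± 0.68 in PC9-HOXC6. ENO2 made up 7.49% ± 0.17 of ENO1 and ENO2 in A549-NEO and 4.50% ± 0.35 in A549-HOXC6, and 4.18% ± 0.28 in PC9-NEO and 7.69% ± 0.19 in PC9-HOXC6. The share of LDHA was higher with HOXC6 in both lines and the share of ENO2 went opposite ways, all without overlap. The muscle enolase ENO3 is outside this share and is named here after its values were seen. It stood at 1236 to 1531 CPM per kilobase in A549-NEO and 2220 to 3197 in A549-HOXC6. Its PC9 groups overlapped after scaling, on raw counts of 5882, 4831 and 5640 with NEO against 5922, 3684 and 7542 with HOXC6. Per kilobase ENO3 as counted lay above ENO1 in all 12 libraries. Genes on the opposite strand share 111 bases of exon with ENO3 and 126 with ENO1. The strand setting of the counts is not given, so the counts of ENO3 are uncertain. The share of ENO2 therefore describes the pair of ENO1 and ENO2 and not the makeup of the whole enolase step. SLC2A3 was 28.3% ± 2.6 and 27.6% ± 1.2 of SLC2A1 and SLC2A3 in A549-NEO and A549-HOXC6, which overlapped, and 9.28% ± 1.3 and 13.9% ± 1.1 in PC9. HK2 was 5.23% ± 1.0 and 4.73% ± 0.62 of HK1 and HK2 in A549, which overlapped, and 8.72% ± 0.98 and 12.9% ± 0.31 in PC9, which did not. The further hexokinase gene HKDC1 is outside this share and is also named after its values were seen. Its raw counts were 287, 297 and 226 in A549-NEO, where HK1 had 337, 277 and 314. In A549-HOXC6 they were 168, 62 and 111, where HK1 had 412, 205 and 280. After scaling HKDC1 was lower with HOXC6 in A549 without overlap, and its PC9 groups overlapped. ALDOA was 98.5% to 99.2% of ALDOA and ALDOC.

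**Figure D3:**
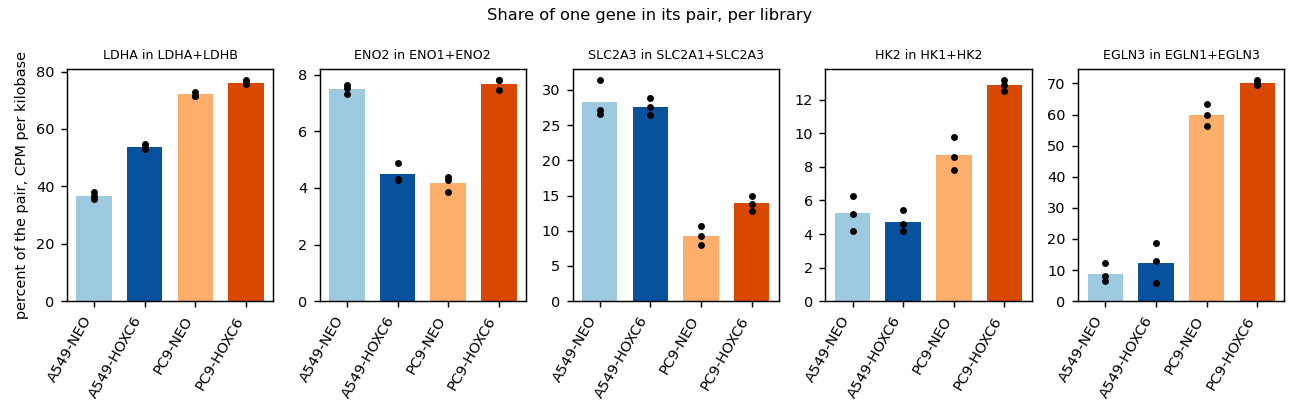
Share (percent, on CPM per kilobase) of one gene in a pair of related genes for each library (points) and the group mean (bars, n = 3). LDHA goes from 36.8% to 53.8% between A549-NEO and A549-HOXC6, and ENO2 from 4.18% to 7.69% between PC9-NEO and PC9-HOXC6. The enolase pair is ENO1 and ENO2 and leaves out ENO3, which was above ENO1 per kilobase as counted, on uncertain counts.

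Of the 11 genes of oxygen sensing and hypoxia output, 3 rose and 4 fell in A549, while 7 rose and 2 fell in PC9. Over all genes tested, 18.9% rose and 20.7% fell in A549, and 13.3% and 14.2% in PC9. HIF1A (GRCh37 chr14:62162231-62214977, plus strand) fell in both lines. It read 311, 315 and 318 CPM in the A549-NEO libraries against 140, 133 and 102 in A549-HOXC6. The PC9 values were 163, 171 and 163 in NEO against 93.1, 97.4 and 78.8 in HOXC6. Every HOXC6 library was below every NEO library of its line. The log2 fold change was -1.37 ± 0.11 in A549 (adjusted p = 8.48e-11), which made HIF1A the member called lower, and -0.90 ± 0.099 in PC9 (adjusted p = 4.21e-08). HIF1A had the lowest GC content of the members, 39.4%, and after the GC correction it stood at -0.96 in A549 and -0.59 in PC9, still fallen in both but no longer called.

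EGLN1, the main prolyl hydroxylase that marks HIF-1α, read 97.3, 88.6 and 86.1 CPM in the A549-NEO libraries against 191, 179 and 185 in A549-HOXC6. Its PC9 libraries gave 84.4, 82.9 and 72.8 with NEO and 81.1, 75.4 and 84.3 with HOXC6. It rose 1.99-fold in A549 (log2 0.99 ± 0.10, adjusted p = 2.07e-08), and its PC9 groups overlapped (0.03 ± 0.11, adjusted p = 0.897). Another gene shares 3004 bases of exon with EGLN1 on the same strand, so its counts are uncertain. EGLN3, a prolyl hydroxylase that is itself induced by hypoxia, read 4.18, 7.65 and 4.72 CPM in the A549-NEO libraries against 17.5, 6.81 and 26.6 in A549-HOXC6, on 8 to 50 counts, and replicate 2 of A549-HOXC6 lay within the NEO range. For PC9 the readings were 78.5, 66.3 and 78.3 in NEO and 116, 110 and 129 in HOXC6. EGLN3 was the member called higher in A549 (1.66 ± 0.36, adjusted p = 5.83e-04) and rose by 0.69 ± 0.11 in PC9 (adjusted p = 1.59e-05).

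P4HA1, a collagen prolyl hydroxylase subunit, and KDM3A, a histone demethylase, need oxygen as EGLN1 does and are induced by hypoxia. P4HA1 read 56.8, 53.6 and 42.1 CPM in the A549-NEO libraries against 32.5, 42.6 and 22.9 in A549-HOXC6, overlapping by 1 library. The PC9 values were 78.5, 67.3 and 64.4 in NEO against 119, 124 and 133 in HOXC6, all higher. P4HA1 fell by 0.72 on the log2 scale in A549 (adjusted p = 0.0031) and rose by 0.86 ± 0.11 in PC9 (adjusted p = 4.54e-07). After the GC correction the A549 value of P4HA1 was -0.39 and no longer passed (adjusted p = 0.0717). KDM3A read 59.6, 57.2 and 63.7 CPM in the A549-NEO libraries against 40.6, 37.5 and 40.5 in A549-HOXC6, a fall of 0.64 ± 0.15 on the log2 scale. In PC9 it was at 0.27 ± 0.15 and did not pass (adjusted p = 0.197).

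The 6 hypoxia outputs together took 0.107% to 0.111% of counts in PC9-NEO and 0.207% to 0.219% in PC9-HOXC6, while in A549 they took 0.108% to 0.118% in NEO and 0.106% to 0.114% in HOXC6. In PC9, 5 of the 6 rose and 1 fell, where 13.3% of all genes rose and 14.2% fell. In A549, 1 of the 6 rose and 1 fell, where 18.9% of all genes rose and 20.7% fell. NDRG1, a stress- and hypoxia-induced gene, read 520, 497 and 512 CPM in the PC9-NEO libraries against 1397, 1379 and 1443 in PC9-HOXC6, and 388, 383 and 369 in the A549-NEO libraries against 411, 386 and 444 with HOXC6. The PC9 rise was 2.77-fold (log2 1.47 ± 0.058, adjusted p = 1.28e-17) and the A549 groups overlapped (0.09 ± 0.082). Other genes on the same strand share 753 bases of exon with NDRG1 and 542 with GPI. ANGPTL4, a secreted inhibitor of lipoprotein lipase, read 19.9, 20.6 and 27.5 CPM in the PC9-NEO libraries against 47.0, 43.9 and 55.1 in PC9-HOXC6, and 107, 89.0 and 98.7 in the A549-NEO libraries against 103, 91.1 and 121 with HOXC6. It was called higher in PC9 (1.11 ± 0.17, adjusted p = 1.19e-05) and was at 0.07 ± 0.12 in A549. After the GC correction the PC9 value of ANGPTL4 was 0.89, past the test and below the fold limit.

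CA9, the carbonic anhydrase that acidifies the cell surface and a widely used hypoxia marker, read 53.3, 48.7 and 47.4 CPM in the PC9-NEO libraries against 101, 90.8 and 102 in PC9-HOXC6. In A549 it read 7.67, 5.64 and 11.0 in NEO and 10.2, 5.96 and 11.7 in HOXC6, on 7 to 28 counts. CA9 rose in PC9 by 0.997 ± 0.12 (adjusted p = 1.86e-07), just short of the fold limit, and was at 0.22 ± 0.34 in A549 with overlapping groups. A gene on the opposite strand shares 571 bases of exon with CA9. BHLHE40, a transcriptional repressor of the clock and hypoxia responses, read 141, 150 and 156 CPM in the PC9-NEO libraries against 268, 264 and 258 in PC9-HOXC6 (0.82 ± 0.080, adjusted p = 5.89e-09). In A549 it read 496, 441 and 459 in NEO and 481, 443 and 483 in HOXC6 (-0.02 ± 0.081). NDRG1, ANGPTL4, CA9 and BHLHE40 thus all rose in PC9 without overlap, and none passed in A549 as counted. After the GC correction NDRG1 and BHLHE40 fell in A549 (-0.20 and -0.24, adjusted p = 0.0172 and 0.00396).

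The angiogenic factor VEGFA read 122, 90.6 and 94.4 CPM in the A549-NEO libraries against 81.5, 72.4 and 76.2 in A549-HOXC6. Its PC9 libraries gave 257, 271 and 269 with NEO and 326, 271 and 312 with HOXC6, with 1 HOXC6 library level with NEO. VEGFA fell by 0.45 in A549 (adjusted p = 0.00649) and was at 0.20 ± 0.076 in PC9 (adjusted p = 0.0472). The A549 fall did not pass without A549-NEO replicate 1 (-0.30, adjusted p = 0.11), and the PC9 rise did not pass without any 1 of 5 of the 6 libraries (adjusted p from 0.0789 to 0.193). ADM, the vasodilator adrenomedullin, went the other way. It read 64.5, 69.3 and 75.9 CPM in the A549-NEO libraries against 89.5, 100 and 126 in A549-HOXC6, and 25.3, 33.7 and 37.3 in the PC9-NEO libraries against 22.6, 18.3 and 23.7 with HOXC6. It rose by 0.55 ± 0.13 in A549 (adjusted p = 0.00146) and fell by 0.55 in PC9 (adjusted p = 0.0338), a fall that did not pass without any 1 of 5 of the 6 PC9 libraries (adjusted p from 0.0594 to 0.183). DESeq2 passed neither change in PC9 (adjusted p = 0.12 for VEGFA and 0.111 for ADM). With the GC correction the PC9 value of VEGFA was 0.014 (adjusted p = 0.922) and the A549 value of ADM 0.20 (adjusted p = 0.177).

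**Figure D4:**
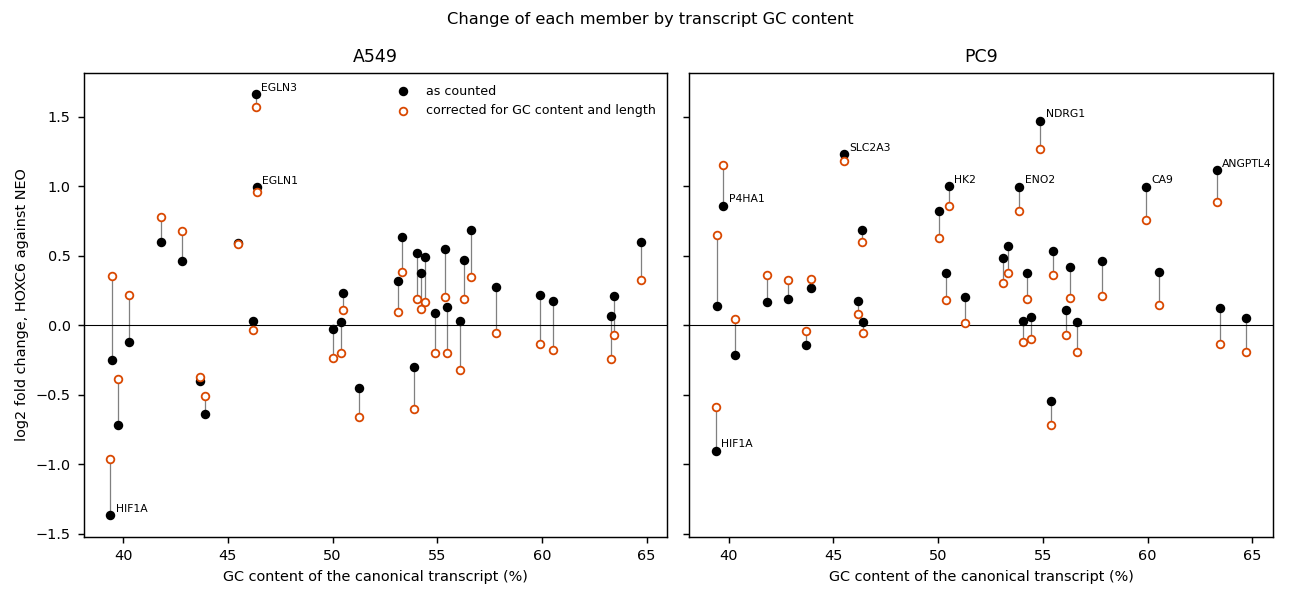
Log2 fold change of each member against the GC content of its canonical transcript (%) in A549 and PC9, as counted (black) and after correction for GC content and length (orange), joined by lines. HIF1A, at 39.4% GC, moves from -1.37 to -0.96 in A549, and NDRG1 from 1.47 to 1.27 in PC9.

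Whether a change differed between the lines was tested as the change in A549 minus the change in PC9, fitted over all 12 libraries, which is why the estimates can depart slightly from the difference of the values given above. Of the 34 members, 9 had a greater (more positive) change in A549 and 9 in PC9, where 10.9% and 8.44% of 9229 genes did, and 3 were called in each direction (2.76% and 2.38% of all genes). Called toward A549 was 1 member without A549-HOXC6 replicate 3 or A549-NEO replicate 3, and toward PC9 5 without PC9-NEO replicate 3. Over all genes, 227 of 9377 and 273 of 9349 were then called toward A549, and 197 of 9347 toward PC9. The median difference of the members was -0.13, beside 0.05 over all genes. Toward A549 stood ADM (1.14 ± 0.23, adjusted p = 3.67e-04), EGLN3 (1.05 ± 0.34, adjusted p = 0.0247) and EGLN1 (1.01 ± 0.15, adjusted p = 3.6e-06), all called, followed by PKM (0.71 ± 0.087), SLC16A3 (0.59 ± 0.13), TPI1 (0.53 ± 0.11), ENO1 (0.48 ± 0.087), LDHA (0.48 ± 0.093) and PGK1 (0.32 ± 0.099). Toward PC9 stood P4HA1 (-1.54 ± 0.21, adjusted p = 8.38e-07), NDRG1 (-1.34 ± 0.10, adjusted p = 1.18e-12) and ENO2 (-1.25 ± 0.12, adjusted p = 7.64e-10), all called, followed by ANGPTL4 (-0.999 ± 0.21), KDM3A (-0.86 ± 0.21), BHLHE40 (-0.80 ± 0.12), VEGFA (-0.60 ± 0.15), SLC2A3 (-0.60 ± 0.18) and HIF1A (-0.42 ± 0.15, adjusted p = 0.0396).

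HK2 (-0.72 ± 0.27, adjusted p = 0.054) and CA9 (-0.72 ± 0.32, adjusted p = 0.111) rose in PC9 and did not pass in A549, but their difference between the lines did not pass. That for HK2 passed with RLE size factors (-0.77, adjusted p = 0.0393), a minimum of 10 counts (-0.74, adjusted p = 0.0416), the GC correction (-0.71, adjusted p = 0.0476), without A549-NEO replicate 1 (-0.88, adjusted p = 0.0337) and without PC9-NEO replicate 3 (-0.83, adjusted p = 0.0344). That for CA9 passed with the GC correction together with the replicate block (-0.87, adjusted p = 0.0337). For HK1 (0.04 ± 0.12), GPI (-0.12 ± 0.096), PFKP (-0.14 ± 0.10), ALDOA (-0.16 ± 0.092) and SLC2A1 (0.12 ± 0.12) the difference did not pass either. With the GC correction it passed for ALDOA (-0.26, adjusted p = 0.00173), PFKP (-0.23, adjusted p = 0.0329), GAPDH (-0.19, adjusted p = 0.0184) and LDHB (-0.27, adjusted p = 0.0137). It also passed without A549-HOXC6 replicate 3 for ALDOA (-0.26, adjusted p = 0.00316) and PFKM (-0.44, adjusted p = 0.027), and with DESeq2 for LDHB (-0.26, adjusted p = 0.0412). The difference for EGLN3 was 0.68 without A549-HOXC6 replicate 3 (adjusted p = 0.174), and did not pass without A549-NEO replicate 1 or replicate 3 (adjusted p = 0.118 and 0.0739). That for HIF1A did not pass when any 1 of 8 of the 12 libraries was left out (adjusted p from 0.0627 to 0.124), nor with the GC correction (-0.33, adjusted p = 0.0564). That for SLC2A3 did not pass without A549-NEO replicate 3, PC9-HOXC6 replicate 3 or PC9-NEO replicate 3 (adjusted p = 0.0569, 0.0648 and 0.0791), nor that for PGK1 without A549-NEO replicate 1 (adjusted p = 0.0681).

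The empty-vector cells show how the lines differed without the HOXC6 vector. Their own HOXC6 level was not analysed, because HOXC6 is missing from the copy of the table used here. Between A549-NEO and PC9-NEO, which share those libraries with the comparisons above, 11 members were higher in A549 and 19 were lower, where 36.9% and 35.7% of 9076 genes were. Of these, 6 were called higher (19.6% of all genes) and 12 called lower (16.4%), and the libraries did not overlap for 12 higher (36.5%) and 20 lower (37.8%). HK2 was 7.56-fold lower in A549 (log2 -2.92 ± 0.18), HK1 4.32-fold lower (-2.11 ± 0.073), CA9 5.96-fold lower (-2.58 ± 0.21) and EGLN3 13.2-fold lower (-3.73 ± 0.21). The abundant enzymes GAPDH (-1.06), ALDOA (-1.15) and TPI1 (-1.07) were also called lower, as were ALDOC (-1.44), PFKFB4 (-1.13), PDK1 (-1.58), SLC16A1 (-1.21) and VEGFA (-1.34). Called higher in A549 were ANGPTL4 (2.13 ± 0.14), PFKP (1.82 ± 0.059), BHLHE40 (1.67 ± 0.075), SLC2A3 (1.56 ± 0.14), LDHB (1.15 ± 0.057) and ADM (1.14 ± 0.14). HIF1A was 1.94-fold higher in A549-NEO (0.96 ± 0.074), while its hydroxylase EGLN1 did not differ past the test (0.22 ± 0.11, adjusted p = 0.0643).

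The makeup of several steps also differed between the empty-vector cells of the lines, as shares described without a test. PFKP made up 76.7% ± 0.93 of the 3 phosphofructokinase genes in A549-NEO and 46.4% ± 1.4 in PC9-NEO, and PFKL 15.4% ± 0.54 and 37.8% ± 0.60. EGLN3 made up 8.89% ± 2.9 of EGLN1 and EGLN3 in A549-NEO and 59.8% ± 3.6 in PC9-NEO, and reached 70.2% ± 0.70 in PC9-HOXC6. SLC16A1 made up 10.7% ± 0.46 of SLC16A1 and SLC16A3 in A549-NEO and 20.6% ± 1.0 in PC9-NEO. None of these shares overlapped between the lines.

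The other genes of these pathways were counted in the same way, beside 18.9% of all genes tested that rose and 20.7% that fell in A549. In PC9 these shares were 13.3% and 14.2%. Of 33 further glycolysis and pyruvate genes in the table, 23 were tested in A549, where 4 rose and 4 fell, and 25 in PC9, where 4 rose and 0 fell. Their median log2 fold change was 0.06 in A549 and -0.01 in PC9. Of 31 further hypoxia genes, 28 were tested in A549, where 5 rose and 7 fell, and 27 in PC9, where 6 rose and 3 fell, with medians of -0.20 and 0.03. Across both lists, 3 genes were called in a line. Of all genes tested, 1.7% were called higher and 5.51% lower in A549, and 0.962% and 3.56% in PC9. PPP1R3C, a glycogen-targeting subunit of protein phosphatase 1, read 6.62, 8.05 and 9.83 CPM in the A549-NEO libraries against 14.5 to 20.5 in A549-HOXC6 (1.09 ± 0.28, adjusted p = 0.00297). PPFIA4, a liprin that is induced by hypoxia, read 5.23, 4.03 and 4.72 CPM in the A549-NEO libraries against 1.10, 0.85 and 2.66 in A549-HOXC6, on 1 to 5 counts per HOXC6 library (-1.59, adjusted p = 0.0243), and did not pass when A549-HOXC6 replicate 1 or 2 or A549-NEO replicate 1 or 3 was left out (adjusted p from 0.0603 to 0.145). LDHD, a mitochondrial D-lactate dehydrogenase, read 6.99, 7.03 and 8.89 CPM in the PC9-NEO libraries against 17.3, 19.8 and 21.3 in PC9-HOXC6 (1.34 ± 0.27, adjusted p = 3.76e-04).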

How the data were processed

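RNA was measured in the 12 libraries, 3 per group, by paired-end sequencing of polyadenylated RNA with a directional kit. The authors mapped reads to GRCh37.p13 with HISAT2 2.1.0 and deposited raw read counts per Ensembl gene from HTSeq 0.9.1, per the labels and the study's methods; the strand setting and annotation release are not given in the sources used here. The submitters' processing notes also name bcl2fastq 2.19 and DESeq2. The copy of the table used here, sorted by Ensembl identifier, ends within a row: 12584 complete entries were used and 1 incomplete last entry was left out, and 12463 Ensembl identifiers matched GENCODE release v44lift37, whose names, lengths and GC content were used.

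The members and the gene lists were chosen with earlier results of these data known. Counts were filtered with filterByExpr, scaled by TMM and tested with edgeR 4.0.16 in R 4.3.3 (quasi-likelihood test, Benjamini-Hochberg adjustment over all genes tested), on the 6 libraries of a line, the 6 NEO libraries, or all 12 libraries for the difference between lines. A call needed a log2 fold change beyond 1 in either direction as well as an adjusted p under 0.05. Every member is named. Of the other pathway genes, those called in a line are named, and ENO3 and HKDC1 were named after their values were seen. ACTB is named beside GAPDH. On simulated counts with known changes of 1.5 (log2), the tests recovered 194 of 199 changed genes in A549, 189 of 194 in PC9, 180 of 199 for the difference between lines and 196 of 198 for the NEO comparison. In the same order, 6, 11, 12 and 10 unchanged genes also passed. No smaller change was planted, and none in genes of the lowest levels. The recovery at the smaller changes of most members is therefore not known.

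Alternatives were DESeq2 1.42.0, RLE size factors, library size only, no filter, at least 10 counts in every library, a replicate block, a correction for GC content and length by smooth terms (mgcv 1.9.3), all 12 libraries in one model, and leaving out each library. Promoter sequences are from RefSeq (GRCh38.p14). Limits from low counts cover counting error only.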

Additional observations from a re-analysis of the deposited data

Results flagged for a closer look

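For 18 of the 34 members the change with HOXC6 differed between the lines, by edgeR's quasi-likelihood test of the change in A549 minus the change in PC9 with Benjamini-Hochberg adjustment. The differences, on the log2 scale, were 1.14 for ADM, 1.05 for EGLN3, 1.01 for EGLN1, 0.71 for PKM, 0.59 for SLC16A3, 0.53 for TPI1, 0.48 for ENO1, 0.48 for LDHA and 0.32 for PGK1, all toward A549. Toward PC9 they were -1.54 for P4HA1, -1.34 for NDRG1, -1.25 for ENO2, -0.999 for ANGPTL4, -0.86 for KDM3A, -0.80 for BHLHE40, -0.60 for VEGFA, -0.60 for SLC2A3 and -0.42 for HIF1A. These 9 and 9 stand beside 10.9% and 8.44% of 9229 genes. The differences for HIF1A, EGLN3, SLC2A3 and PGK1 were each lost without at least 1 of the 12 libraries, and that for HIF1A did not pass with the GC correction (-0.33, adjusted p = 0.0564). ENO2, P4HA1, VEGFA and ADM passed in both lines as counted, with changes of opposite sign. KDM3A and BHLHE40 also had opposite signs but did not pass in both lines. The A549 change did not pass without A549-NEO replicate 1 for ENO2 and VEGFA, nor with the GC correction for P4HA1 and ADM, and the PC9 change of VEGFA and ADM did not pass with DESeq2. The lines were grown in different media, so the line and the medium cannot be told apart in any of these differences.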

How the results depend on the processing

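At any size of change, 15 members rose and 6 fell in A549, 19 and 2 in PC9, 9 and 9 in the difference between lines, and 11 and 19 between the NEO cells. In the same order, the shares over all genes were 18.9% and 20.7%, 13.3% and 14.2%, 10.9% and 8.44%, and 36.9% and 35.7%. The count called higher in A549 was 1; it was 2 with DESeq2, with RLE size factors and with all 12 libraries in one model, and 0 with at least 10 counts in every library, a filter that leaves out the low-count EGLN3. The count called lower in A549 was 0 with the GC correction, with or without the block. Over all genes, 149 of 8771 were called higher in A549, against 144 with DESeq2 and 157 with RLE size factors. These were 211 of 9229 with all 12 libraries in one model and 95 of 7683 with at least 10 counts. Called lower in A549 were 483 of 8771 genes, against 226 with the GC correction and 216 with the block as well. The count called higher in PC9 was 6 without a filter, and that toward A549 in the difference was 1 with DESeq2, RLE size factors, the minimum of 10 counts, and the GC correction with the block. Over all genes, 112 of 10732 were called higher in PC9 without a filter, against 81 of 8419 with it. Toward A549 in the difference, 255 of 9229 genes were called, against 184 of 8692 with DESeq2 and 203 of 9229 with RLE size factors. With the minimum of 10 counts these were 173 of 6904, and with the GC correction and the block 258 of 9229. Leaving out 1 library gave 1 to 2 called higher and 1 lower in A549, 4 to 5 higher and 0 lower in PC9, 1 to 3 toward A549 and 3 to 5 toward PC9 in the difference, and 5 to 6 higher and 12 to 13 lower between the NEO cells. Over all genes it gave 129 to 183 higher and 396 to 634 lower in A549. In PC9 these were 78 to 109 and 267 to 315. The difference had 227 to 289 toward A549 and 192 to 262 toward PC9. Between the NEO cells 1822 to 1871 were higher and 1517 to 1543 lower.

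With the GC correction, the A549 values turned to -0.055 for PFKP, -0.18 for ALDOA, -0.32 for GAPDH and -0.20 for NDRG1, and the PC9 value to -0.19 for PKM. With the correction and the replicate block they were -0.055 for PFKP, -0.18 for ALDOA, -0.32 for GAPDH and -0.20 for NDRG1 in A549, and -0.12 for TPI1, -0.10 for ENO1, -0.19 for PKM and -0.19 for SLC16A3 in PC9. The cause was not tested.

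The labels do not say whether the replicate numbers pair the libraries, and the values do not settle it. With the replicate block, 1289 genes rose and 1307 fell in PC9, against 1123 and 1193 without it. In A549 these were 1675 and 1857, against 1657 and 1812. Same-numbered HOXC6 and NEO libraries had correlations of deviations from -0.03 to 0.04. With the replicate block, 1 member was called higher and 1 lower in A549 and 3 higher and 0 lower in PC9, and GAPDH passed in PC9 (0.11, adjusted p = 0.00959, edgeR). Over all genes, 150 of 8771 were then called higher and 493 lower in A549, and 83 of 8419 higher and 293 lower in PC9. The lowest depth, 1212053 counts, limits HK2, CA9, EGLN3 and PDK1 in A549.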
